A study of Populus trichocarpa with 15 samples.

Results

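Variable regions are stretches of leaf chromatin of *Populus trichocarpa* (black cottonwood) that were called open in some branches and not in others. Peaks of 14 branch libraries that overlapped or touched on chromosomes 1 to 19 were merged, and a merged region was kept when it was under 1000 bp wide and held a peak base from 2 to 9 of the libraries. This gave 21794 variable regions, 39.5% of the 55198 merged regions on the assembled chromosomes and 21794 of 55335 in all. The number of calling libraries and the width chose the members, so both are given as a description. Which libraries made the calls, where on these chromosomes the regions lay and how far they were from regions called in all 14 libraries were not criteria. The limit of 9 libraries still restricts which sets of callers can occur.

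The libraries came from leaves of wild trees, frozen in liquid nitrogen after collection, with each library made from a different branch. Trees 13 and 14 are stems of a single individual and gave 5 libraries each (branches 1 to 5), and tree 4, another individual, gave 4 (branches 2 to 5). Libraries are named here by tree and branch, so that 13.2 is branch 2 of tree 13. No treatment or engineered genotype was involved, and the study could not determine the ages of branches 13.4 and 14.1. A comparison of trees 13 and 14 is therefore one of 2 stems, and a comparison with tree 4 one of 2 individuals. The tests exchange branches between these trees, or branch numbers within a tree, and do not extend to other trees. Markers of leaf could not be looked up, because the lists hold positions and no genes.

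ATAC-seq uses a transposase that inserts sequencing adapters where DNA is not covered by nucleosomes, so read pile-ups mark accessible chromatin. In plants accessible sites are concentrated near the starts of genes and at distal regulatory elements, where transcription factors displace nucleosomes. A leaf holds epidermal, mesophyll and vascular cells, and a whole-leaf library records their sum, so a site open in a small share of cells gives a weak peak. A peak caller lists a site only where its signal passes a threshold. Absence from a list therefore means only that no call was made there, and such a region may still have been open.

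The variable regions were narrow and weak. They covered 5.53 Mb, with a median width of 228 bp (quartiles 179 and 302 bp, range 93 to 933 bp). The −log10 q-value of a peak, which rises with the confidence of the call, averaged over the calling libraries had a median of 3.87, against 3.18 for regions called in 1 library, 5.36 for those called in 10 to 13 and 8.89 for those called in all 14 (each under 1000 bp wide). The weakest peak of each list had a −log10 q-value just above 2, at most 2.05. When each peak was ranked by its score within its own list, the median variable region stood at percentile 25.3, and 1046 of the 21794 (4.80%) averaged percentile 50 or above. Within libraries, peaks in variable regions had a median −log10 q-value of 3.75 ± 0.289 (SD, n = 14 libraries), whereas peaks in regions called in all 14 had 8.61 ± 1.69. The highest library value for variable regions, 4.20 in 13.2, lay below the lowest value for regions called in all 14, 6.53 in 13.5. Variable regions were thus mostly drawn from the weaker end of every list. A weak site passes the threshold in fewer libraries, so this is in part set by the limit of 9 libraries.

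Most variable regions were called by few branches. From 2 to 9 calling libraries the numbers of regions were 5262, 3429, 2793, 2319, 2208, 2036, 1962 and 1785, with a mean of 4.72. At the edges of the rule, 13226 regions were called in 1 library against 5262 in 2, and 1940 in 10 against 1785 in 9. The median width rose from 177 bp (2 libraries) to 298 bp (9 libraries), and the median −log10 q-value rose from 3.499 to 4.46. These steps continued outside the rule without a break, with 121 bp and 3.18 at 1 library and 308 bp and 4.67 at 10. A merged width spans the peaks of all callers, and a site near the threshold is listed by fewer libraries. Both trends are therefore in part built in. The widest variable region, 933 bp on chromosome 2 (15315833 to 15316766), was called in 6 libraries at a mean −log10 q-value of 2.98 ± 0.522 (SD). The nearest region past the width limit, 1003 bp on chromosome 2 (13670973 to 13671976), was called in 9 libraries at 3.17 ± 0.911 and was left out.

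The calling branches placed their peaks at nearly the same position. In 21435 variable regions (98.4%) every calling library held a single peak. The midpoints of these peaks had a median SD of 27.3 bp, close to the 28.6 bp of regions called in 10 to 13 libraries and the 26.5 bp of those called in all 14. A core covered by every caller was present in 91.9% of the variable regions and made up a median of 34.6% of the merged width. This median share fell from 58.8% at 2 calling libraries to 22.0% at 9. Peaks were merged only where they overlapped or touched, and regions were kept only under 1000 bp. Close midpoints and single peaks were therefore in part set by the rule.

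How often a branch took part in the variable regions followed the length of its list. In tree 13, branches 1 to 5 called 7261, 14084, 5231, 4360 and 503 variable regions, from lists of 28067, 37420, 25210, 23797 and 12752 peaks on the chromosomes. In tree 14, branches 1 to 5 called 9924, 5860, 15748, 9668 and 3002, from 31967, 26258, 39613, 31004 and 21154 peaks. In tree 4, branches 2 to 5 called 5447, 2488, 10210 and 9053, from 25026, 19769, 31720 and 30557 peaks. Branches 13.2 and 14.3 were high and 13.5 was low, and the trees overlapped throughout. The calls spanned a 31.3-fold range where list lengths spanned a 3.11-fold range, and on log2 scales the slope across the 14 libraries was 3.03. Variable regions made up 3.95% of the list of 13.5 and 40.0% of the list of 14.3. Every list also holds the 9722 regions called in all 14, which leaves short lists fewer peaks for variable regions. The range, slope and shares are in part set by this. Read depth is unknown, so the amount of sequencing behind each list cannot be told apart from the chromatin of the branch.

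Drawing the callers of each region in proportion to list length gave a flatter prediction than the data. The full lengths used include the regions called in all 14, which every list holds, so part of this gap is built in. For 13.5 the prediction was 4377 variable regions, and the 503 observed were 0.115 of it. For 14.3 it was 9219, and the 15748 observed were 1.71 times as many. Observed over predicted was 0.807 ± 0.531 in tree 13, 1.08 ± 0.465 in tree 14 (SD, n = 5 each) and 0.895 ± 0.381 in tree 4 (n = 4). On the log2 scale tree 13 stood 0.71 below tree 14 (two-sided exact permutation test over 252 arrangements of libraries, p = 0.405, adjusted p = 0.472 over the 7 tests of this family). Trees 13 and 14 together stood 0.08 below tree 4 (exact permutation test, 1001 arrangements, p = 0.906, adjusted p = 0.906). Neither difference exceeded the spread between branches. With lists of equal length the difference between the stems was 0.01 in the other direction (exact permutation p = 0.817).

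**Figure D1:**
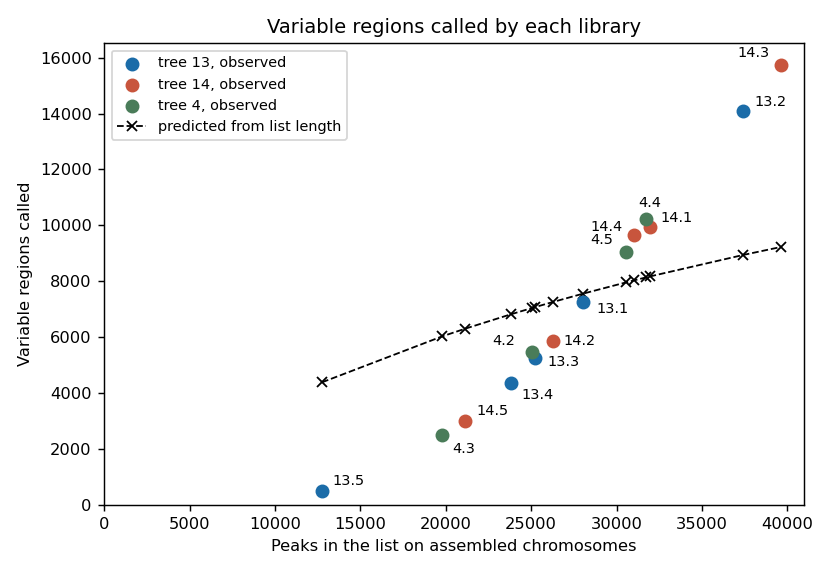
Variable regions called by each of the 14 libraries (y axis, number of regions) against the number of peaks in its list on assembled chromosomes (x axis), coloured by tree and named by tree and branch; crosses joined by a dashed line give the number predicted from list length. The observed points run from 503 (13.5) to 15748 (14.3) and cross the prediction between the lists of 13.1 and 4.5.

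The next question was which branches shared their calls. For the regions called in a given number of libraries, the predicted number of calls shared by a pair of libraries was computed with each library's own number of calls held fixed, so that long lists gained no excess. Over all 91 pairs the variable regions held 250569 shared calls. Most pairs lay close to their prediction: the 78 pairs without 13.5 had a mean log2 ratio of 0.00 with an SD of 0.05. The 13 pairs with 13.5 had an SD of 0.25, and its 503 calls make its ratios the least precise. Branch sharing thus departed little from what the number of calls of each library gave.

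Libraries of the same stem shared slightly more calls than libraries of different stems. Within trees 13 and 14 the mean log2 ratio of observed to predicted shared calls was 0.04 (20 pairs, 14 above 0), against −0.03 across them (25 pairs, 7 above 0). The difference of 0.07 is 1.05-fold (exact permutation test, one-sided, 252 arrangements, p = 0.00794, which is the smallest that these arrangements can give, adjusted p = 0.0556). In numbers, pairs within a stem shared 56733 calls where 55964.5 were predicted, and pairs across stems shared 71418 where 71783.8 were predicted. The excess within stems was thus 768.5 shared calls. Pairs within tree 13 had a mean of 0.07 (10 pairs, 8 above 0) and pairs within tree 14 had 0.01 (10 pairs, 6 above 0). The difference was 0.02 without 13.5 (exact permutation p = 0.0317), 0.03 without 13.1 (p = 0.0397), 0.04 without 13.4 (p = 0.0556) and 0.05 without 14.4 (p = 0.0873) or 4.4 (p = 0.0317). Without both 13.4 and 14.1 it was 0.04 (exact permutation p = 0.171), with lists of equal length 0.05 (p = 0.119), and among peaks with a −log10 q-value of at least 5 it was 0.06 (p = 0.0556). With branch number as a replicate block it had an exact permutation p = 0.0625, the smallest that 5 pairs allow. It was higher for regions called in 3 to 8 libraries (0.11, exact permutation p = 0.00794) and for variable regions with a mean score percentile of 50 or above (0.16, exact permutation p = 0.0159), but these last gave −0.01 once 13.5 was left out (exact permutation p = 0.690).

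Sharing within an individual did not exceed sharing between individuals beyond the spread of the libraries. The mean log2 ratio was 0.01 over the 51 pairs within an individual and −0.02 over the 40 pairs with 1 library from each (difference 0.03, 1001 arrangements, one-sided exact permutation p = 0.0699, adjusted p = 0.167). Within tree 4 the mean was 0.07 (6 pairs, 5 above 0). The difference was 0.00 without 4.3 and 0.01 without 4.5 (exact permutation p = 0.420 and 0.259). Leaving out any 1 of 13.1, 13.2, 13.5, 14.2, 14.4, 14.5 or 4.2 gave 0.03 or 0.04 with an unadjusted exact permutation p under 0.05, the lowest being 0.00280 without 13.5. When callers were instead drawn in proportion to list length, the difference was −0.04 (exact permutation p = 0.475). The comparison between individuals therefore depended on single libraries and on how the prediction was made.

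Neighbouring branches of a tree, those with consecutive numbers, had a mean log2 ratio of 0.08 (11 pairs, 10 above 0), and other pairs within a tree had 0.03 (15 pairs, 9 above 0). The difference of 0.06 was within what exchanging branch numbers gave (345600 arrangements, one-sided exact permutation p = 0.0822, adjusted p = 0.167), although without 13.1 it was 0.07 (p = 0.0301). It was 0.02 without 13.4 or without 4.2 and 0.03 without 13.3 or without 4.3. Neighbours also had closer narrowest peaks (a mean gap of 15.8 bp, against 22.7 bp for other pairs of a tree) and closer list lengths (0.44 against 0.56 on the log2 scale), whose part in the difference was addressed by a linear adjustment that left it at 0.05 (exact permutation p = 0.118).

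The 5 pairs that stood farthest from their prediction each held 13.5 or 4.3, the shortest lists. Branch 13.5 shared 240 calls with 4.2 where 159 were predicted, a log2 ratio of 0.59, although these branches belong to different individuals. It shared 272 calls with 13.1 (217 predicted) and 159 with 13.4 (127 predicted), a log2 ratio of 0.33 in both cases. It shared 131 calls with 14.2 where 157 were predicted, the lowest of the 91 log2 ratios at −0.27. Branches 4.2 and 4.3 shared 899 calls where 745 were predicted (log2 ratio 0.27), and 13.3 and 13.4 shared 1342 where 1236 were predicted (0.12). The narrowest peak in a list was 159 bp in 13.5, 138 bp in 4.2 and 129 bp in 4.3 and lay between 90 and 120 bp in the other 11 lists, and the part of this difference in the pair ratios was not tested pair by pair.

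**Figure D2:**
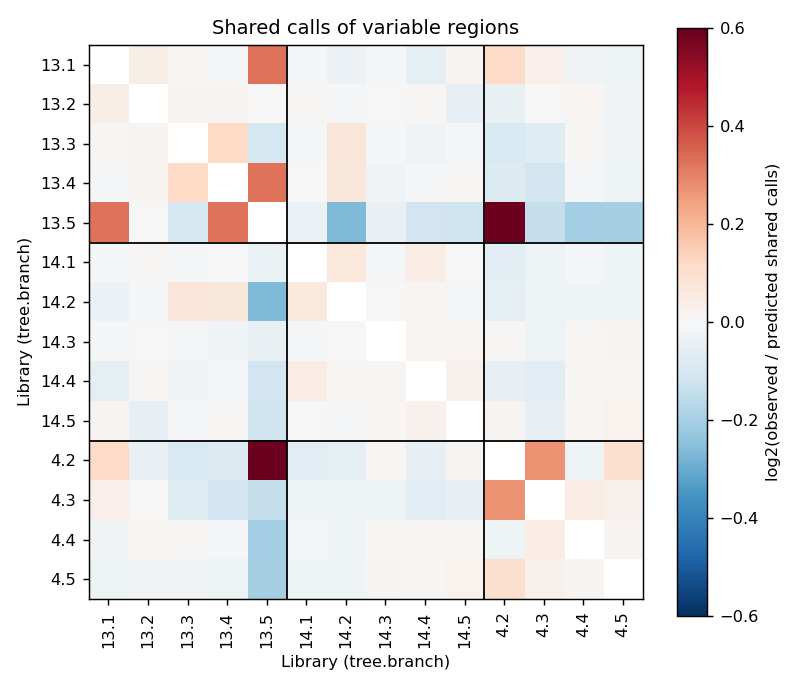
Log2 ratio of observed to predicted shared calls of variable regions for each pair of the 14 libraries (colour, red above 0 and blue below 0), with libraries on both axes named by tree and branch and black lines between trees. Most cells are near 0, and the strongest colours, up to 0.59 with 4.2, lie in the row and column of 13.5.

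By tree, 11870 variable regions (54.5%) had a call in each of the 3 trees, where 12124 were predicted from the calls of the libraries (ratio 0.979). Calls in a single tree were slightly more frequent than predicted: 411 regions were called in tree 13 alone (363 predicted, ratio 1.13), 1200 in tree 14 alone (1116 predicted, 1.08) and 209 in tree 4 alone (197 predicted, 1.06). Regions with calls in both stems and none in tree 4 numbered 4145 (4123 predicted), those in trees 13 and 4 numbered 1238 (1216 predicted), and those in trees 14 and 4 numbered 2721 (2655 predicted). Every class confined to 1 or 2 trees was thus above its prediction, by at most 1.13 times.

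The sets of calling branches were diverse. The 21794 regions fell into 3644 distinct sets of libraries, and the commonest sets were pairs that held a long list. The set of 13.2 and 14.3, the longest lists of the 2 stems, took 537 regions (567 predicted), followed by 14.1 with 14.3 (310, with 288 predicted) and 14.3 with 4.5 (289, with 242 predicted). Among the regions of exactly 2 libraries, departures were found within and across trees. Within tree 13, the set of 13.1 and 13.2 held 158 regions (125 predicted, ratio 1.27) and that of 13.1 and 13.3 held 16 (23.8 predicted, 0.671). Across trees, 13.3 with 14.2 held 41 (25.8 predicted, 1.59) and 14.5 with 4.5 held 22 (14.1 predicted, 1.56).

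The calls of single regions were also compared between trees. Two-sided Fisher's exact tests of called against not called were run on every region whose number of calls allowed an unadjusted p under 0.05, with Benjamini-Hochberg adjustment over them. For tree 13 against tree 14 this covered 9042 regions, of which 0 passed after adjustment (0%) and 275 had an unadjusted p under 0.05 (3.04%). The variable regions among them numbered 8636, and 262 (3.03%) had an unadjusted p under 0.05: 18 were called more often in tree 13 (0.208%, background 0.21%) and 244 more often in tree 14 (2.83%, background 2.83%). These 8636 made up 95.5% of the tested regions, so the match of the shares is built in, and the lists of tree 14 were longer on average. The smallest p that 5 against 5 libraries allow is 0.00794 by this exact test. For any region to pass at that p, at least 1436 would have had to reach it, where 13 did. Passing at a larger p would have needed more regions at or below it, and 275 lay under 0.05. The 0 after adjustment was thus practically set by the number of libraries. For trees 13 and 14 against tree 4, 0 of 18615 regions passed after adjustment (0%) and 185 had an unadjusted p under 0.05 (0.994%), against 129 of 14496 variable regions (0.890%). Here the smallest exact p was 0.000999. For any region to pass at that p, at least 372 would have had to reach it, where 3 did, and a larger p would have needed more. Of the 129 variable regions, 25 were called more often in trees 13 and 14 (0.172%, background 0.435%) and 104 more often in tree 4 (0.717%, background 0.559%). The limit of 9 libraries leaves out most regions with calls in nearly all libraries of trees 13 and 14, so the rule limits the split by direction. The counts at an unadjusted p rested on single lists. For the stems, leaving out each library in turn gave 273 (without a library of tree 4) to 1015 (without 14.5) variable regions. Without 13.5 the count for the stems was 381. For the individuals the range was 91 to 346 (without 4.3). Without both 13.4 and 14.1 the counts were 40 for the stems and 56 for the individuals.

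Few variable regions separated the trees completely. A single region was called in the 5 libraries of tree 13 and no other, on chromosome 9 (8490290 to 8490671, 381 bp). Its −log10 q-values in 13.1 to 13.5 were 4.21, 3.90, 4.73, 3.40 and 2.99, all near the lower end of the lists, and the base pairs common to all 5 peaks made up 15.5% of its width. It lay 877 bp from a region called in all 14.

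Tree 14 had 3 such regions. The first, on chromosome 16 (10424181 to 10424637, 456 bp), had −log10 q-values of 4.32, 4.31, 5.22, 3.39 and 2.83 in 14.1 to 14.5. The second, on chromosome 1 (28130669 to 28130944, 275 bp), had 6.19, 2.48, 6.42, 2.74 and 3.04. The third, on chromosome 13 (1347770 to 1347972, 202 bp), had 6.90, 2.38, 3.40, 4.31 and 2.89. In each of them at least 1 branch was below 3, so that a slightly stricter list would have dropped the branch and broken the pattern.

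Tree 4 also had 3, and these were stronger. On chromosome 1 (9754808 to 9755104, 296 bp), 4.2 to 4.5 had −log10 q-values of 11.3, 6.47, 7.64 and 6.30, a mean of 7.92 ± 2.31 (SD, n = 4) at a mean score percentile of 70.6, and 75.7% of the width was common to all 4 peaks. Also on chromosome 1 (19964736 to 19965124, 388 bp) they had 5.14, 5.74, 10.3 and 3.52, with a mean percentile of 52.8. On chromosome 4 (1759271 to 1759504, 233 bp) they had 4.80, 4.47, 4.48 and 4.57, the most even of the 7 regions, with a mean percentile of 38.8. No variable region was called in every library of tree 4 and of 1 stem while missing from the whole of the other stem. From the calls of each library the predicted numbers of regions confined to a whole tree were 0.0144 for tree 13, 1.29 for tree 14 and 0.344 for tree 4. These regions were picked out by their calls, and counts this small were not tested.

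Strong variable regions were rare, and the 5 strongest all had calls in trees 13 and 14, which gave most of the libraries. The highest mean score percentile, 81.3, belonged to a 329 bp region on chromosome 4 (3356224 to 3356553). It was called in 13.1 to 13.4 at −log10 q-values of 10.3, 9.76, 9.21 and 6.93 and in 14.1 to 14.5 at 12.8, 10.4, 16.7, 10.02 and 5.21, and had no call in 13.5 or in any library of tree 4. Next, at percentile 80.0, came a 133 bp region on chromosome 13 (16239043 to 16239176), called in 13.2, 13.4, 14.1, 14.2 and 14.4 at 8.32, 9.57, 7.71, 9.70 and 9.19. It was missing from the longest list, that of 14.3, and it lay 878 bp from a region called in all 14.

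The third strongest, on chromosome 18 (3892339 to 3892649, 310 bp), had calls in all 3 trees, with a mean −log10 q-value of 9.87 ± 2.88 (SD, 9 libraries) and values of 6.61 in 4.4 and 12.4 in 4.5. The fourth, on chromosome 14 (15534570 to 15534849, 279 bp), averaged 9.33 ± 2.11 over 9 libraries, with 8.85 in 4.5. It was 429 bp from a region called in all 14. The fifth, on chromosome 8 (15571222 to 15571367, 145 bp), was called in 13.3, 13.4, 14.1 and 14.2 at 7.21, 8.87, 7.23 and 9.77 and was 592888 bp from the nearest region called in all 14. None of the 5 was called in 13.5, 14.5 was among the callers of the first alone, and 3 of the 5 had no call in tree 4.

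Across the 1046 strong variable regions (mean score percentile of 50 or above) the absence of tree 4 was as frequent as predicted. Of these, 246 (23.5%) had no call in tree 4 where 240.7 were predicted (ratio 1.02), 108 had none in tree 13 (102.7 predicted) and 38 had none in tree 14 (31.2 predicted, ratio 1.22). Only 3 had calls in tree 4 alone (1.24 predicted). In the remaining 20748 the ratios were 1.03 for no call in tree 4 and 1.04 for each stem. Leaving out each library in turn kept the ratio for tree 4 between 1.01 and 1.07. Regions that looked like marks of the split individual were therefore about as common as the number of calls of each library predicted.

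Distance to the regions called in all 14 libraries was the next question. There were 9722 such regions of any width, and variable regions lay a median of 10228 bp from the nearest one (quartiles 4244 and 23844 bp, range 2 to 1051490 bp). The median depends on how many regions count as called in all 14, and it was 19859 bp with lists of equal length and 23634 bp in the most significant 50% of each list. On the full lists the median was 11941 bp for regions called in 1 library, 9389 bp for those called in 10 to 13 and 8598 bp for those called in all 14 (to the next one). Variable regions were nearer than regions of 1 library on 17 of the 19 chromosomes and farther than regions of 10 to 13 libraries on 13 of 19. Within 1 kb lay 1794 variable regions (8.23%), against 4.81% of the bases outside regions called in all 14, a 1.71-fold excess. The same share was 6.80% for regions of 1 library and 8.75% for those of 10 to 13 libraries. Variable regions thus held an intermediate place, closer to the broadly called regions than to the single calls.

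The density of variable regions did not fall steadily with distance. Per Mb of sequence at that distance there were 96.6 variable regions within 1 kb, then 80.6, 69.6 and 64.7 in the next 3 kb. The density then rose to 80.9 at 4 to 5 kb and 89.6 at 5 to 6 kb, 1.39 times the value at 3 to 4 kb, and was 80.4 at 6 to 7 kb. Beyond 10 kb it was 43.9. Regions of 1 library went from 32.9 per Mb at 3 to 4 kb to 51.3 at 5 to 6 kb, and regions of 10 to 13 libraries went from 35.2 to 44.3. All 3 classes thus had a trough before 4 kb and a higher density past 5 kb. For the variable regions the ratio of the 5 to 6 kb density over the 3 to 4 kb density was 1.32 in the most significant 50% of each list, 1.25 among peaks with a −log10 q-value of at least 5, and 1.33 to 1.39 with each library left out. No test was run on these densities, since neighbouring regions are not independent. The part of peak calling in the trough and the rise was not tested either.

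**Figure D3:**
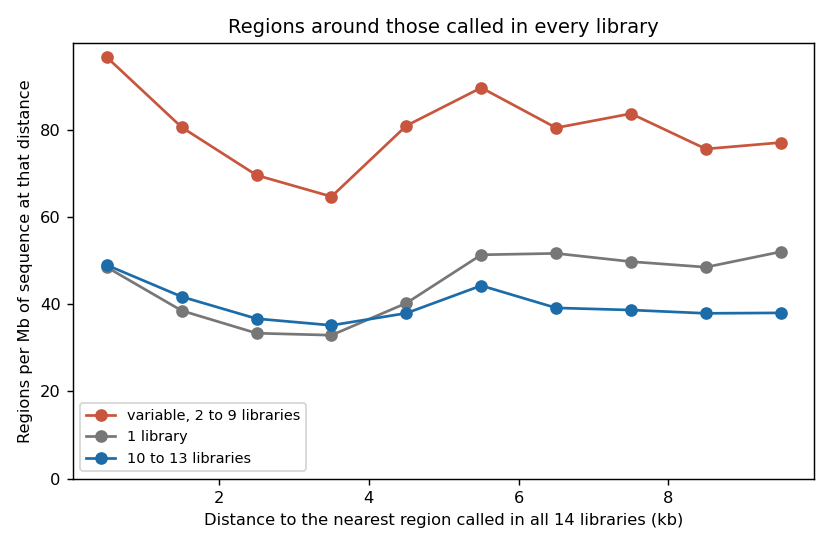
Density of regions (y axis, regions per Mb of sequence at that distance) by distance to the nearest region called in all 14 libraries (x axis, kb, in steps of 1 kb up to 10 kb), for variable regions, regions of 1 library and regions of 10 to 13 libraries. The variable regions fall from 96.6 to 64.7 per Mb by 3 to 4 kb and stand at 89.6 per Mb at 5 to 6 kb.

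The branches differed in how close their variable regions lay to these anchors. The share of a library's variable regions within 1 kb was 9.05, 8.40, 8.77, 10.9 and 15.9% in 13.1 to 13.5, 8.76, 8.72, 8.01, 8.93 and 6.76% in 14.1 to 14.5, and 8.06, 7.36, 8.002 and 7.47% in 4.2 to 4.5. Branch 13.5 was high, with 503 calls behind its value, and the stems overlapped. Without it the difference between the stems given next was 1.18 points (exact permutation p = 0.0952). The means were 10.6 ± 3.12% in tree 13 and 8.24 ± 0.895% in tree 14, a difference of 2.37 percentage points (two-sided exact permutation p = 0.0952, adjusted p = 0.167), and 7.72 ± 0.361% in tree 4, 1.70 points below the other 10 libraries (p = 0.197, adjusted p = 0.276). The latter difference was 0.106 points with lists of equal length, 0.134 in the most significant 50% of each list and 0.181 among peaks with a −log10 q-value of at least 5. The stem difference had an unadjusted p under 0.05 without 13.2 (2.66 points, exact permutation p = 0.0238), without 13.3 (2.60 points, p = 0.0397), and in 2 filtered sets of peaks whose values are given with the other settings.

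Near these anchors, variable regions tended to be called in libraries where the neighbouring anchor had a lower score. For each variable region the score percentile of its nearest region called in all 14 was compared between the libraries that called the variable region and those that did not, after removing the mean of each neighbour and of each library. For the 6315 variable regions up to 5 kb away, the neighbour's percentile was lower by 1.34 ± 0.486 (SD, n = 14 libraries) where the variable region was called. Every library had a value below 0, from −2.28 in 4.3 to −0.595 in 13.2. For the 15479 variable regions more than 5 kb away the difference was 0.202 ± 0.260, above 0 in 11 of 14 libraries.

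By distance, the mean difference was −1.24 up to 500 bp, −1.60 from 500 to 1000 bp, −1.65 from 2 to 3 kb and −1.62 from 3 to 4 kb. It was −0.606 from 4 to 5 kb and 0.438 from 5 to 6 kb, and farther out it lay between −0.126 and 0.320. The change of sign thus fell at the distance where the density of variable regions rose. The size is small, under 2 steps of a percentile scale, some variable regions share a neighbour, and no test was run because the comparison was added after the values had been seen. The lists hold no signal for a library without a call, so what the signal of the variable region did there cannot be given. Calls and scores come from the same peak caller, and its part in this pattern was not tested.

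**Figure D4:**
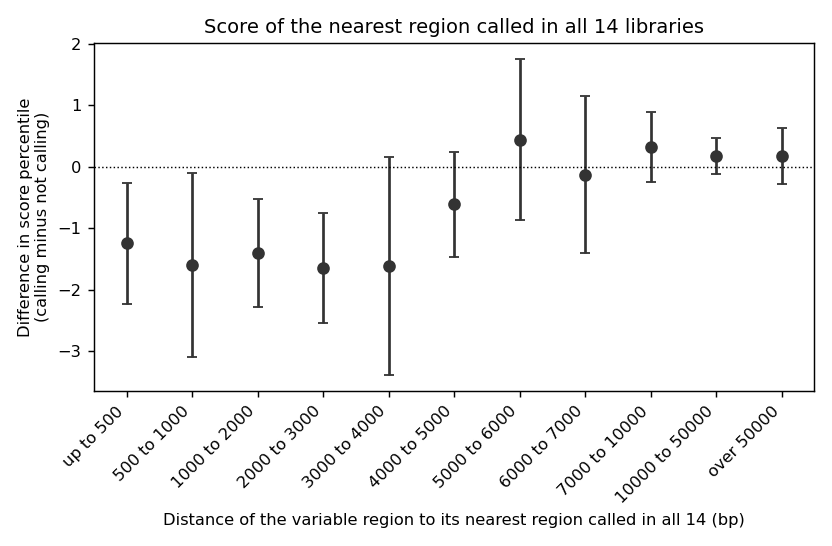
Difference in the score percentile of the nearest region called in all 14 libraries between libraries that called the variable region and libraries that did not (y axis, percentile units), by distance of the variable region (x axis, bp); points are means and bars are SDs over the 14 libraries, and the dotted line marks 0. The means lie between −1.65 and −1.24 up to 4 kb and near 0 beyond 5 kb.

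The spacing between variable regions was described as well. Of the 21794, 4127 (18.9%) had another variable region within 1 kb, and the median gap to the nearest other one was 4347 bp. No expected value was computed for this spacing, so it is not read as clustering. Consecutive variable regions up to 200 bp apart (374 pairs) shared 627 calls where 697 were predicted from the library calls, a ratio of 0.900. The ratio was 0.999 from 200 to 500 bp (785 pairs), 0.971 from 500 to 1000 bp (1018 pairs), 0.972 from 1 to 2 kb (1469 pairs), 0.972 from 2 to 5 kb (3515 pairs), 1.004 from 5 to 10 kb (4322 pairs) and 1.02 from 10 to 50 kb (8877 pairs). Neighbours up to 5 kb apart were thus called together no more often than predicted, with no departure from 200 to 500 bp and a small deficit in the other steps, and the ratios beyond 5 kb were slightly above 1. Peaks that touch are merged, so gaps near 0 exist only where different libraries placed separate peaks or 1 library placed both. Whether peak calling had a part in these ratios was not tested.

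The 3 farthest variable regions lay on chromosome 3, in the same stretch without a region called in all 14. Their closeness is in part set by choosing the farthest. The window at 3 to 4 Mb held 8 variable regions and 0 called in all 14. The region at 3597706 to 3597929 lay 1051490 bp from any region called in all 14 and was called in 13.1, 13.2, 13.4, 14.3, 4.4 and 4.5 at −log10 q-values of 3.87, 7.33, 4.91, 5.08, 5.67 and 3.63. A second, at 3596072 to 3596538, was called in 14.3 at 2.52 and in 4.5 at 2.46, both close to the lowest value of a list. The third, at 3739313 to 3739569, was called in 8 libraries at a mean of 4.43 ± 1.07 (SD). Variable regions farther than 50 kb from an anchor numbered 2138 (9.81%) in all.

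Along the genome the variable regions followed the regions called in all 14, with a flatter profile. The chromosomes held 55.8 variable regions per Mb against 24.9 called in all 14, or 2.24 variable regions for each. Chromosome 9 was the densest at 75.4 per Mb and chromosome 19 the sparsest at 35.7 per Mb, a 2.11-fold range where regions called in all 14 spanned 3.14-fold. The densities of both kinds had a Spearman rho of 0.956 across the 19 chromosomes, which is a description since both come from the same lists. Variable regions per region called in all 14 were most numerous on chromosomes 19 (3.03), 17 (2.93) and 11 (2.78) and fewest on chromosome 2 (1.91). Chromosomes 19, 17 and 11 were also those with the fewest regions called in all 14 per Mb (11.8, 15.2 and 14.98), and that density enters both quantities.

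**Figure D5:**
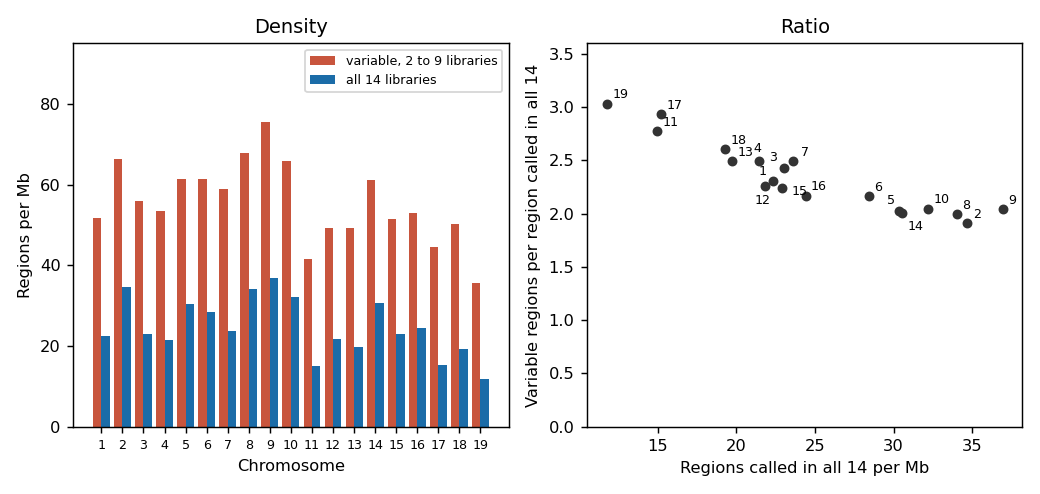
Left, variable regions and regions called in all 14 libraries per Mb (y axis) on each of the 19 chromosomes (x axis). Right, variable regions per region called in all 14 (y axis) against regions called in all 14 per Mb (x axis), with 1 point for each chromosome; the ratio runs from 1.91 on chromosome 2 to 3.03 on chromosome 19.

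Windows of 1 Mb showed the same flattening. Across 381 windows there were 0 to 112 variable regions (median 56) and 0 to 71 regions called in all 14 (median 23), with a Spearman rho of 0.899 between them. Variable regions outnumbered those called in all 14 in 378 windows (99.2%), and their coefficient of variation was 47.8% against 63.5%. When windows were put in 5 groups by the number of regions called in all 14, the lowest group (77 windows) held 20.2 ± 11.1 variable regions (SD) and 4.21 for each region called in all 14. The highest (76 windows) held 87.1 ± 12.5 and 1.81. Single-library regions gave 2.97 and 0.999 on the same count. Regions of 10 to 13 libraries averaged 7.99 per window in the lowest group and 43.4 in the highest, against 4.81 and 48.3 called in all 14. Sparse windows thus held relatively more of each of these classes, those of 10 to 13 libraries included. Since the grouping used the denominator of these ratios, they are given without a test.

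The most variable regions in a window, 112, were found in 3 windows. That at 14 to 15 Mb of chromosome 10 also held 57 regions called in all 14, and those at 1 to 2 Mb and 6 to 7 Mb of chromosome 14 held 65 and 48. In the window of chromosome 10, the first of the 3 in genome order, the strongest variable region (14103420 to 14103615, 195 bp) was called in 13.1, 13.2, 14.1 and 14.3 at −log10 q-values of 3.81, 11.7, 8.52 and 6.42 and in no library of tree 4. With each chromosome cut into 10 equal parts, variable regions were fewest in the fifth (1689, 7.75%) and most numerous in the second (2500, 11.5%). Regions called in all 14 had 7.38% and 12.02% in the same parts. The middle of the chromosomes was thus thinner for both, and the number of variable regions per region called in all 14 lay between 2.13 and 2.42 in all 10.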

How the data were processed

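ATAC-seq peak lists of 14 leaf libraries were analysed, and 1 further library, titled 1.1 with peak names of tree 4, was placed in no group and not used. The submitters' processing notes name Trimmomatic 0.36, Bowtie 1.1.1 and MACS2 2.1.2. Coordinates are printed as deposited. The genome build, the filters and whether reads were shifted at transposase cuts were not given in the sources used here. The authors called peaks per library and deposited a score for each peak, with −log10 q-values and −log10 p-values beside it. The deposited score ranks peaks within a list. Read depth is unknown, which leaves the lists without counting intervals.

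Peaks on chromosomes 1 to 19 were merged where they overlapped or touched. Shared calls were predicted by drawing each region's callers without replacement, with library weights fitted to keep each library's number of calls. A pair with 0 shared calls was read as 0.5. Libraries were exchanged in exact permutation tests (one-sided for sharing, two-sided otherwise), with Benjamini-Hochberg adjustment over 7 tests. Distance is the gap in bp between region edges. Alternatives were stricter, equal-length or wider peaks, other limits, each library left out and a replicate block. The scripts' statistics were tested on simulated calls. Regions are named if confined to whole trees, among the 5 strongest or 3 farthest, strongest in the densest window (the first in genome order of 3 tied), or at the width limit. The members, lists and several tests were chosen with earlier results of these data known. Different branches served as replicates, so p-values measure the spread between branches of these trees. Python 3.11.15, numpy 2.4.6, scipy 1.17.1, pandas 2.3.3 and matplotlib 3.10.9 were used.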

Additional observations from a re-analysis of the deposited data

Results flagged for a closer look

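The peaks that 4.2 placed in variable regions were wide for its tree. Their median width was 188 bp, and the nearest other library of tree 4 was at 153 bp. Divided by the range of the 4 libraries this gap came to 0.921, past Dixon's 95% critical value. It was the only library singled out among 21 groups (7 measures in each of 3 trees), and chance flags about 1 in 20 groups. Over all 14 libraries this median lay between 123 and 189 bp, the highest being 13.5, the library with which 4.2 had its highest ratio of observed to predicted shared calls.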

How the results depend on the processing

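Of 175 recomputations of the 7 tests, 147 kept direction and side of an unadjusted p of 0.05, 15 moved past it, 6 fell short of it and 7 reversed. Stem sharing (0.0701 on the log2 scale) was 0.0605 among peaks of −log10 q 5 or more (exact permutation p = 0.0556), 0.0491 with equal lists (p = 0.119), 0.0375 without 13.4 and 14.1 (p = 0.171), 0.109 for regions of 3 to 8 libraries, 0.158 among strong members (p = 0.0159) and −0.00914 among those without 13.5 (p = 0.690), both added after seeing the data, and 0.0219 to 0.0690 with each library left out. Sharing within individuals (0.0300) was 0.0340 with peaks of at least 159 bp (exact permutation p = 0.0120), 0.0352 for members at least 1 kb away (p = 0.0160), −0.0419 predicted from list lengths (p = 0.475), −0.00295 among strong members (p = 0.496), 0.0681 among those without 13.5 (p = 0.00839), the last 2 added after seeing the data, and 0.00396 to 0.0369 leaving out libraries, with p under 0.05 without 13.1, 13.2, 13.5, 14.2, 14.4, 14.5 or 4.2. Neighbour sharing (0.0587) was 0.0176 to 0.0656 leaving out libraries, 0.00375 among peaks of −log10 q 5 or more, 0.00639 without 13.4 and 14.1, 0.0141 in the most significant 50%, 0.0895 among strong members and 0.389 predicted from list lengths. Calls against list length were −0.957 to −0.108 for the stems (0.0111 with equal lists, exact permutation p = 0.817) and −0.417 to 0.225 for the individuals, reversed without 13.5 (0.225), 4.4 (0.105) or 4.5 (0.0589). The stem difference within 1 kb was 0.424 points in the most significant 50% of each list (exact permutation p = 0.0317), 2.06 with peaks of at least 159 bp (p = 0.0238) and 1.18 to 2.78 leaving out libraries, and that for individuals (1.70) was 1.14 to 1.97 leaving out libraries and 0.106 with equal lists.

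Member numbers were 13080 in the most significant 50%, 11054 with equal lists and 21488 to 22905 leaving out libraries. The median distance was 23634 bp in the most significant 50%, 22330.5 among peaks of −log10 q 5 or more, 19859 with equal lists, 23955.5 with 50% of the region covered, 13245.5 with peaks of at least 159 bp, and 8043.5 (without 13.5) to 10214 leaving out libraries, since each setting also changes which regions are called in all. The Fisher tests gave 0 regions wherever they were run, which says nothing on stability at these numbers of libraries. Members at an unadjusted p under 0.05 ranged from 273 to 1015 (stems) and 91 to 346 (individuals) leaving out libraries. For the stems they were 159 in the most significant 50%, 99 among peaks of −log10 q 5 or more, 155 with wide peaks and 40 without 13.4 and 14.1, and for the individuals 265 with 50% covered and 56 without 13.4 and 14.1. The causes were not tested.

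Branch numbers do not pair the stems: same-numbered libraries correlated from −0.0302 to 0.0712 and only 2 of 5 best with their own number. With a replicate block the stem sharing of 0.0701 had an exact permutation p = 0.0625, the smallest 5 pairs allow, calls against list length (−0.709) had p = 0.25, the share within 1 kb (2.37 points) had p = 0.188, and 0 regions passed.

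The limits are set by the lists. They hold only peaks past a threshold and no read depth, so a missing call is no measured absence, and 13.5, with 503 calls, decides several values. Each tree is a single stem or individual.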
